A study of Mus musculus with 4 samples.

Results

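The Myb and Hbs1l locus of mouse chromosome 10 comprises 2 protein-coding genes that lie head to head, and the 135 kb of DNA between their start sites. It was examined with 100 kb of flank on either side, from 21024935 to 21468898 (GRCm38), in 4 lists of transcription start regions. The genes and the interval were chosen by their measured values in these same lists, namely peak positions, peak numbers and scores that differed between the tissues, so all comparisons of peaks here are descriptions and none was tested. The 2 genes are members of an annotation of 55450 genes. Their locus held 28 of the 61095 merged regions of the series.

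Myb encodes the transcription factor c-Myb, which keeps blood progenitors dividing and is turned down as red cells mature. Hbs1l encodes a GTP-binding protein that, with its partner Pelota, rescues stalled ribosomes. The DNA between the genes is known as a set of distal enhancers of Myb in erythroid progenitors, bound by GATA1, TAL1, LDB1 and KLF1, and common human variants in the matching interval are associated with fetal haemoglobin levels and red cell traits. Active enhancers are transcribed in both directions into short unstable RNAs, which run-on assays capture.

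The libraries are PRO-seq libraries, in which engaged RNA polymerases are located by extending their nascent RNA in a nuclear run-on. There were 2 from liver and 2 from yolk sac of mouse embryos at stage E14.5, each made from chromatin of tissue pooled from 6 embryos. All embryos came from C57BL/6J mothers, and their fathers were of mixed C57BL/6J and CAST/EiJ background, selected for CAST/EiJ alleles at Dlk1/Gtl2 on chromosome 12, so this background is shared by the groups. The labels do not say whether the replicate pools were of different embryos, and the SD between replicates may therefore be technical. In these whole tissues, fewer cells of a type and less transcription per cell cannot be told apart.

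Each list gives the position of dREG peaks, intervals that a classifier calls as start regions of promoters or enhancers, with a score that has no unit. The liver lists held 24863 and 24333 peaks and the yolk sac lists 50525 and 43055, with a lowest score of 0.80 in all 4, and the number of reads behind them is unknown. An interval without a peak therefore did not reach that score, which is not the same as no transcription. The score is the authors' own, and it is given here as a percentile, the share of peaks of the same list with an equal or lower score. Peaks of the 4 lists that overlapped were merged into regions. A region is called liver-only when both liver lists and neither yolk sac list had a peak there, and yolk-sac-only in the reverse case.

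The sequences of both promoters, and of parts of the only 2 intergenic regions that coincide with annotated RNA starts, are shown first. The promoter windows are from the RefSeq table (GRCm38.p6), which held both genes, and the exon is from GENCODE M21. All are the C57BL/6J reference, printed 5′ to 3′ on the strand of the gene. They comprise 250 bases before the start of Myb (chr10:21160985-21161234, minus strand) and of Hbs1l (chr10:21295729-21295978, plus strand). The third is the window from 250 bases before to 50 after the RefSeq start of the lincRNA Gm33619 (chr10:21186694-21186993, plus strand), which lies inside the liver-only region nearest to Myb. The last is the second exon of the lincRNA Gm40608 (chr10:21188679-21188864, minus strand), inside the next liver-only region. Capitals mark matches to the motifs named afterwards.
Myb promoter: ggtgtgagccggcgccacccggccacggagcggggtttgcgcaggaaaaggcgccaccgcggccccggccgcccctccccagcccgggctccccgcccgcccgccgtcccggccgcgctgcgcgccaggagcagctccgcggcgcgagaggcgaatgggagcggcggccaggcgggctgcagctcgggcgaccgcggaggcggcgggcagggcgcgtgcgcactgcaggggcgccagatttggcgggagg
Hbs1l promoter: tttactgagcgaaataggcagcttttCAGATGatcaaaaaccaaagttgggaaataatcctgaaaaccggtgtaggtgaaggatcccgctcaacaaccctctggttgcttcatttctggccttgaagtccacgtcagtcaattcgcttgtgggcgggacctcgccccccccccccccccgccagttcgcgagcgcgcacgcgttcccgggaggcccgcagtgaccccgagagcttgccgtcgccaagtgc
Gm33619 promoter: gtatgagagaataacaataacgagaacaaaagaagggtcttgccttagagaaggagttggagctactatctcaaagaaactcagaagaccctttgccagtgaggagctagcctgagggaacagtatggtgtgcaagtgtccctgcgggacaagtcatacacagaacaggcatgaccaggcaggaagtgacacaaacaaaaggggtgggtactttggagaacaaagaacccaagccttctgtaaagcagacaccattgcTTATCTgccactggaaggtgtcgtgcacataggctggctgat
Gm40608 exon: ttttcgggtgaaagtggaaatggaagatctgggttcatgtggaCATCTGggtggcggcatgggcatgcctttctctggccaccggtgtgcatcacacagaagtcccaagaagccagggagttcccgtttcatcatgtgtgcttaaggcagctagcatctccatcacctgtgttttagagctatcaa

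The Myb promoter consisted of 81.2% G and C and held 40 CpG dinucleotides, against medians of 52.4% and 6 over 32851 RefSeq promoter windows of this length, of which 98.9% held as many CpGs or fewer. The Hbs1l promoter held 58.4% G and C and 19 CpGs. The Gm33619 window, with 48% G and C and 3 CpGs, was at or above only 31.4% of promoters in CpGs. The Gm40608 exon held 51.1% G and C and 4 CpGs. It was set against the first 186 bases of each promoter window, which leave out the bases next to the start. Among these cut windows it equalled the median of 4 CpGs and was at or above 55.4%. The promoters of the coding genes are thus rich in CpG and these printed intergenic sequences are not. The rest of the regions that hold these sequences was not read, nor were the other liver-only regions between the genes.

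Both strands were searched for motifs of factors known to act in blood cells. The GATA motif was taken as either AGATAA or, as its other form, TGATAA, and the E-box as CAGATG or CAGCTG. The KLF motif was CCACACCC or CCACGCCC, the RUNX motif TGTGGT, and that of NF-E2 or AP-1 TGAGTCA. The MYB motif was CAACTG, or TAACTG, or else TAACGG. The last was CTG followed after 7 or 8 bases by GATA, which can overlap a GATA or E-box match. The Gm33619 window had 1 GATA match, AGATAA on the opposite strand at bases 259 to 264, and no other match. A GATA match occurs in 18.6% of all promoter windows of the same length. The Gm40608 exon had 1 E-box match, CAGATG on the opposite strand at bases 44 to 49. An E-box occurs in 19.6% of promoter windows cut to their first 186 bases. The Hbs1l promoter had 1 E-box match, at bases 27 to 32, as do 25.5% of windows of its length, and the Myb promoter had no match to any of these motifs. Such matches are letters in a window, and none was examined for binding.

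Between Myb and Hbs1l, from 21160985 to 21295978, liver showed a series of start regions and yolk sac showed none. Liver replicate 1 had 12 peaks there, liver replicate 2 had 10, and each yolk sac replicate had 0. The liver mean was 11 ± 1.41 peaks (SD, n = 2), against 0 for yolk sac, and the values of the tissues did not overlap. The gap of 10 peaks between the nearest lists of the tissues compares with a difference of 2 between the liver replicates. Over the 8467 gaps between neighbouring protein-coding genes that held any peak, both liver lists exceeded both yolk sac lists in 7.29%. The rule that chose the locus used this contrast, so nothing is read from that share.

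The liver peaks covered 8524 and 7070 bp of the interval, or 7797 ± 1028 bp (SD, n = 2). In yolk sac, no peak lay over a stretch of 134.1 kb in either list, from the edge of the Myb start to the Hbs1l start. This stretch was among the longer ones of its lists: 94.3% and 92.9% of the stretches between neighbouring yolk sac peaks were this long or shorter, with medians of 10.5 and 12.6 kb. Peaks within 500 bp of a start site of Myb were counted with Myb. If every peak was placed by its midpoint instead, an alternative added after the values were seen, each yolk sac list had 1 peak in the interval, the one at the edge of the Myb start.

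**Figure D1:**
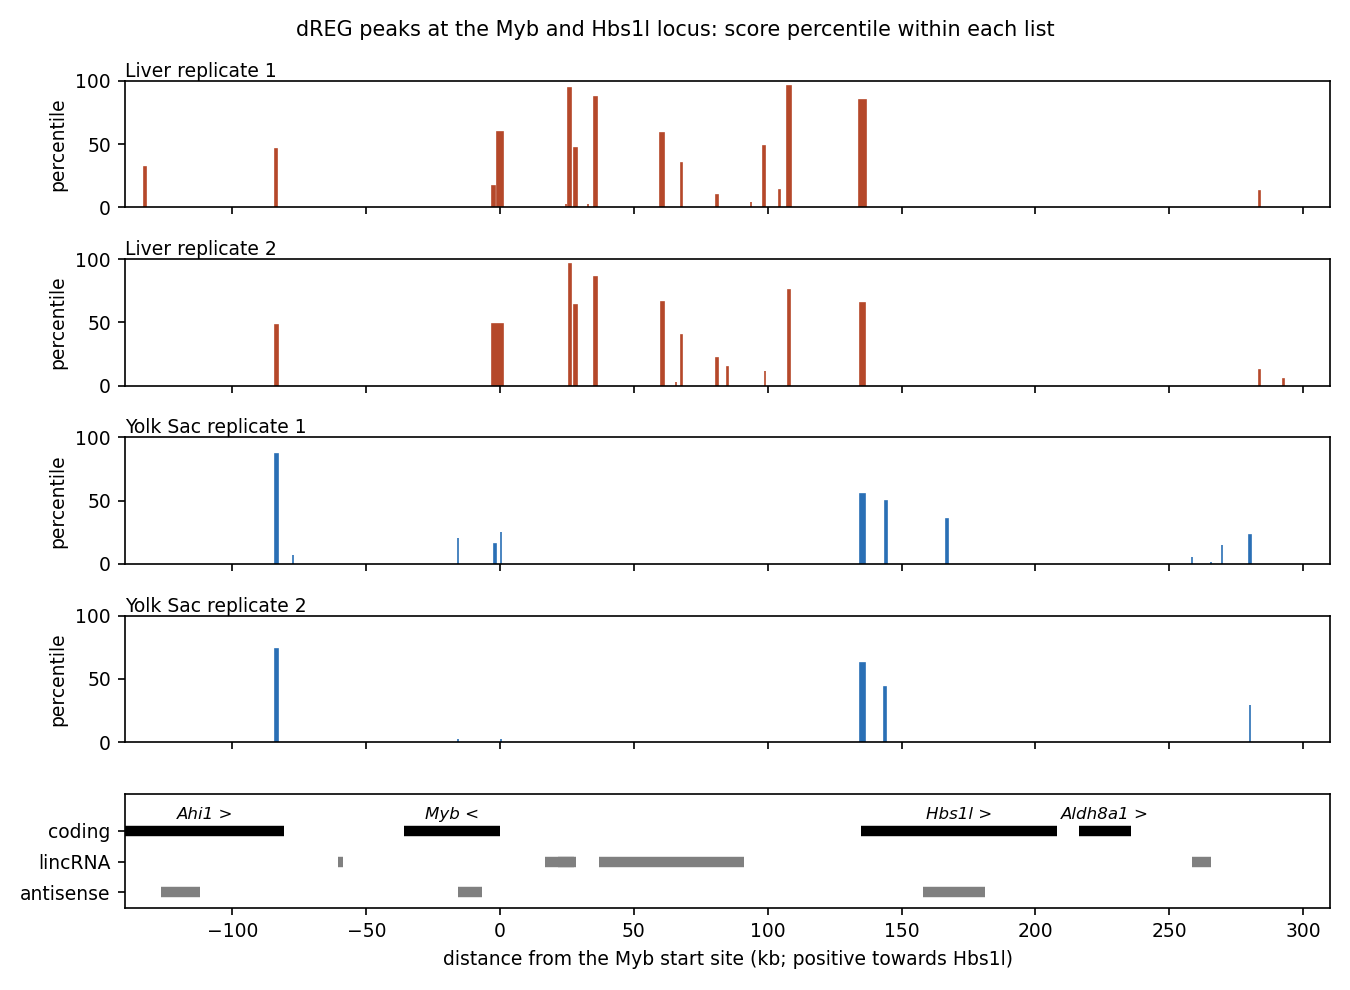
Peaks of the 4 lists over the locus, by distance from the Myb start site in kb (x axis) and by score percentile within the list (y axis), with coding, lincRNA and antisense genes under them; arrows give the strand, and bars have a thin outline so that the narrowest peaks can be seen. The 12 and 10 liver peaks between Myb and Hbs1l have no counterpart in yolk sac, whereas the Hbs1l start is marked in all 4 lists.

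The peaks of the interval merged into 14 regions, of which 8 were liver-only, none was yolk-sac-only, none was in all 4 lists, and 6 were called in a single liver list. Over the genome 6.62% of regions were liver-only, 33.0% yolk-sac-only, 25.7% in all 4 lists and 27.6% in 1 list. The 8 liver-only regions spanned 83.2 kb. The first lay 25.9 kb upstream of the Myb start and the last 27.1 kb from the Hbs1l start, with 4 nearer to each gene. Their spacing, midpoint to midpoint, ran from 2.33 to 24.9 kb with a median of 9.23 kb. The nearest yolk sac peak was between 25.0 and 66.4 kb away from each of them.

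The region nearest to Myb, at 21186451 to 21187352, was among the highest-scoring of its kind. It lay 25.9 kb upstream of the Myb start, at an internal start of the lincRNA Gm33619 and within an intron of the lincRNA Gm40608 on the other strand. Its scores stood at percentiles 94.2 (replicate 1) and 96.1 (replicate 2), and its peaks were 852 and 752 bp wide. Its lower percentile equalled or exceeded that of 97.9% of the 4047 liver-only regions. The neighbouring region, at 21188651 to 21189802 and 28.2 kb from Myb, covered the annotated start of Gm40608. It was at the 47.3 and 64.0 percentiles and 1152 bp wide in both lists. Only a part of each of these regions is printed above, and the printed exon does not include the annotated start of Gm40608. The other 6 liver-only regions were away from annotated start sites.

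The third region, at 21196101 to 21197252, lay outside annotated genes and 35.7 kb from Myb, at the 87.5 and 86.1 percentiles. Within the long lincRNA Gm33728 there were 3 more liver-only regions, none on an exon. The first, at 21220851 to 21222252 and 60.6 kb from Myb, was at the 59.1 and 66.5 percentiles. The next, at 21228551 to 21229102 and 67.8 kb, was at the 35.5 and 40.2 percentiles. The last, at 21241651 to 21242452 and 81.1 kb, was the weakest of the 8 in replicate 1, at the 9.49 percentile, and at the 22.3 percentile in replicate 2. Neither tissue had a peak at the annotated start of Gm33728.

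Beyond Gm33728, 2 regions lay outside annotated genes on the side of Hbs1l. The region at 21259351 to 21260052, 98.7 kb from Myb, was the least repeatable of the 8, at the 48.4 and 11.7 percentiles and 702 against 152 bp wide. The region at 21268201 to 21269652, 107.9 kb from Myb and 27.1 kb from Hbs1l, was at the 96.3 and 75.4 percentiles and 1452 and 1052 bp wide. High scores thus stood at both ends of the series, with the lowest scores between them.

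**Figure D2:**
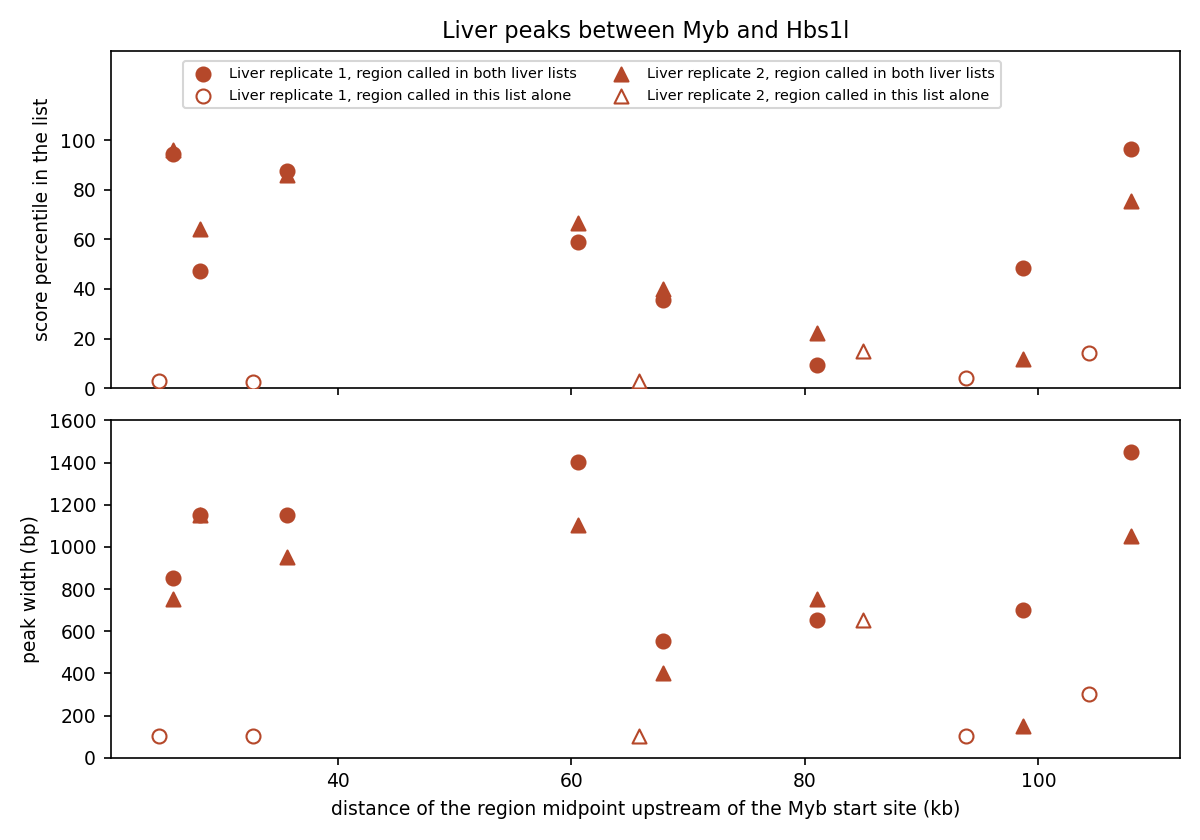
Score percentile (upper panel) and width in bp (lower panel) of the liver peaks between Myb and Hbs1l, by the distance of the region midpoint from the Myb start in kb; circles are replicate 1, triangles replicate 2, and open symbols are regions called in a single liver list. Regions found in both lists reach the 96.3 percentile, and those found in 1 list stay at or below the 14.9 percentile.

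The replicates gave close scores to some of these regions and not to others. The percentiles of a region differed between the liver replicates by 1.43 points for the region at 21196101 and by 36.7 points for that at 21259351. The median over the 8 regions was at the 53.7 percentile in replicate 1 and the 65.3 in replicate 2, beside 42.7 and 37.3 over all liver-only regions. Taking the lower percentile of each region, the median of the 8 was 53.2, against 32.0 for all 4047 liver-only regions of the genome, and 6 of the 8 lay above that value. For the 6 away from start sites the median was 47.3, against 31.3 for the 3424 such regions of the genome. These percentiles are among the values that chose the locus.

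The 6 regions found in a single liver list were weak. Replicate 1 alone had 4 of them, at 21185651, 21193701, 21254751 and 21265151, with scores between 0.812 and 0.868 and widths between 102 and 302 bp. Replicate 2 alone had those at 21226751 and 21245601, with scores of 0.814 and 0.882 and widths of 102 and 652 bp. All 6 were between the 2.68 and 14.9 percentiles, near the floor of the lists, and 102 bp is the narrowest width of any list. Over the genome, regions called in a single library had median percentiles of 12.0 in liver replicate 1 and 9.71 in replicate 2.

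Of the genes themselves, both had a promoter peak, within 500 bp of an annotated start site, in all 4 libraries, as did 53.8% of 21951 protein-coding genes. The peaks at Myb, on the minus strand from 21124935 to 21160984, differed between the tissues in score, width and position. In liver they were at the 59.9 and 49.0 percentiles, and in yolk sac at the 25.6 and 2.52 percentiles. All liver values lay above all yolk sac values, with means of 54.4 ± 7.68 and 14.0 ± 16.3 (SD, n = 2). The difference of 40.4 points was larger than the gap from replicate 1 to replicate 2 in liver or in yolk sac. Among the 11805 genes called in all 4 libraries the median difference was -3.04 points, and 99.4% had a difference as large or smaller.

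The Myb peaks were 2102 and 4002 bp wide in liver and 252 and 202 bp in yolk sac, a 13.4-fold difference in mean width, where the median ratio over the 11805 genes was 0.966. The liver peaks, from 21159851 to 21161952 and from 21158001 to 21162002, ran across the start site into the first part of the gene. The yolk sac peaks both began at 21161201, which is 217 bp upstream of the outermost Myb start, and did not cover it. Inside Myb, liver replicate 1 also had a peak at 21157951 to 21159052 (17.3 percentile) and yolk sac replicate 1 one at 21158851 to 21159352 (16.1 percentile). The start peak of liver replicate 2, at the 99.4 percentile of widths in its list, spanned this stretch as well. Merged, these peaks form 1 region in all 4 libraries, which hides the difference at the start site itself.

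Hbs1l, on the plus strand from 21295979 to 21368898, had a peak across its start site in both tissues. The peaks were at the 84.9 and 65.5 percentiles in liver and at the 55.3 and 62.3 percentiles in yolk sac. The means were 75.2 ± 13.7 and 58.8 ± 4.94 (SD, n = 2). The difference of 16.4 points was smaller than that between the liver replicates. The peaks were 2452 and 1902 bp wide in liver and 1802 and 1752 bp in yolk sac, a ratio of 1.23 between the mean widths.

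**Figure D3:**
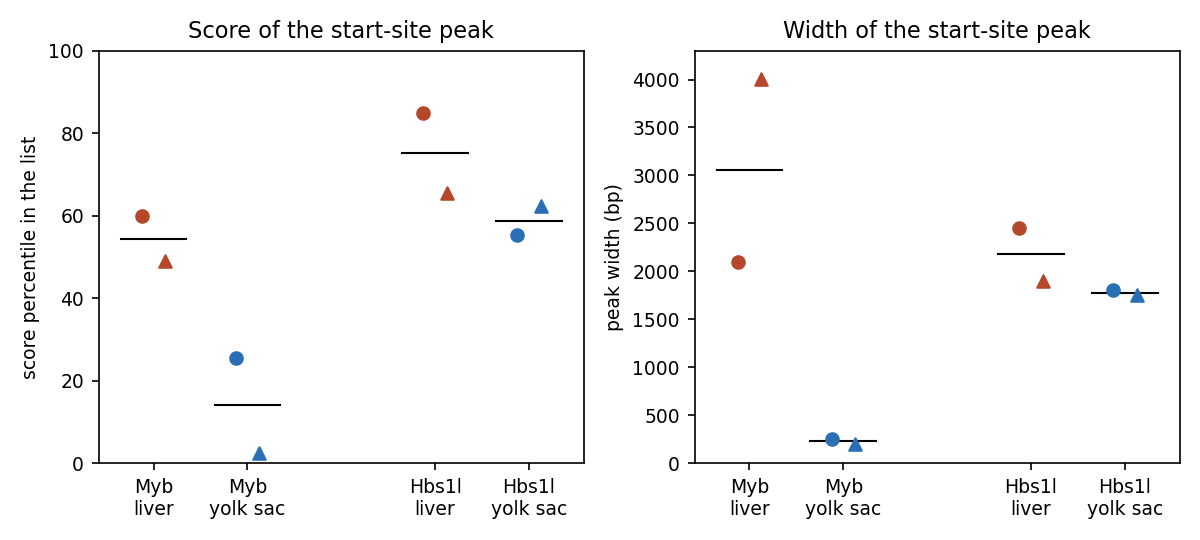
Score percentile within the list (left) and width in bp (right) of the highest-scoring promoter peak of Myb and of Hbs1l in liver and yolk sac; circles are replicate 1, triangles replicate 2 and horizontal lines the mean of 2 libraries. The Myb widths of 252 and 202 bp in yolk sac stand far below 2102 and 4002 bp in liver, while the 4 Hbs1l widths lie between 1752 and 2452 bp.

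Whether the Myb promoter counted as shared changed with how many peaks were used. When each list was cut to its 24333 peaks of highest score, Myb retained a promoter peak in liver replicates 1 and 2 and lost it in both yolk sac replicates, whereas Hbs1l had one in all 4. In the higher-scoring 50% of each list, only liver replicate 1 had a peak at Myb. The numbers between the genes were 12, 10, 0 and 0 with the 24333 highest-scoring peaks and fell to 4, 5, 0 and 0 in the higher-scoring 50%. The first cut could hardly change them. It took no peak from liver replicate 2 and few from liver replicate 1, and the yolk sac lists had none there to lose.

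The bodies of the genes held 2 yolk-sac-only regions and no liver-only region in the full lists. With the lists cut to equal length, which shortened almost only the yolk sac lists, neither was yolk-sac-only. The Hbs1l region was then left in yolk sac replicate 2 alone and the Myb region in neither. Within Myb, the region at 21145101 to 21145402 lay at the annotated start of Gm26577, an RNA gene on the opposite strand, and overlapped an exon of each gene. It was weak, at the 20.2 and 2.86 percentiles of the yolk sac lists and 302 and 102 bp wide. Within Hbs1l, the region at 21304501 to 21305402, overlapping an exon but no start site, was at the 49.9 and 43.5 percentiles and 752 and 802 bp wide. Its lower percentile equalled or exceeded that of 63.5% of yolk-sac-only regions. A further peak within Hbs1l, at 21327751 to 21328452, was found in yolk sac replicate 1 alone (35.6 percentile).

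In the flanks both tissues had peaks. On the side of Myb, a region within Ahi1, a gene of the primary cilium, was called in all 4 libraries at 21076801 to 21077902, away from annotated starts. It was at the 46.3 and 48.0 percentiles in liver and at the 86.8 and 73.6 in yolk sac, so that here the yolk sac values lay above both liver values. The Ahi1 promoter, outside the flank, had a peak in all 4 libraries, between the 59.2 and 73.0 percentiles. On the side of Hbs1l there were 1 liver-only region, at 21444451 to 21444852 (13.1 and 12.4 percentiles), and 1 yolk-sac-only region, at 21440851 to 21441452 (23.1 and 29.6 percentiles). No list had a peak at the start of Aldh8a1, which encodes an aldehyde dehydrogenase of liver and kidney, nor at those of the noncoding genes and pseudogenes Gm10826, Gm20149, Gm48189, Gm2467, 4930455C13Rik, Fkbp1a-ps2, Gm48385 and Gm48386. That of 1700021A07Rik had a peak in yolk sac replicate 1 alone (5.89 percentile).

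Over the locus with its flanks the lists held 18, 15, 12 and 6 peaks, with means of 16.5 ± 2.12 for liver and 9 ± 4.24 for yolk sac (SD, n = 2). The difference was 7.5 peaks, and it depended on how many peaks each library contributed: it was 4.5 without yolk sac replicate 2 and 14 when every list was cut to its 24333 peaks of highest score. In the gene bodies and flanks together there were 4 and 3 liver peaks, against 10 and 4 yolk sac peaks. With the lists cut to equal length, a count added after the values were seen, they held 4 and 3 in liver and 1 and 2 in yolk sac. This cut took peaks almost only from the yolk sac lists, and the direction in the bodies and flanks turned. It left the interval between the genes at 12 and 10 liver peaks and no yolk sac peak, and could hardly have done otherwise. The last peaks inside the 100 kb limits lay 3.32 to 52.5 kb from the limit on the side of Myb and 15.1 to 27.7 kb from it on the side of Hbs1l. The first peaks outside lay 70.5 to 72.5 kb and 76.5 to 201 kb beyond the limits.

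The interval was set beside the other gaps between neighbouring protein-coding genes, to show where such series of liver-only regions occur. Of 19065 gaps, 1094 held a liver-only region and 6 held 8 or more. The gap between Myb and Hbs1l ranked 4, as 1 of 3 gaps with 8. Ties were ordered by the liver minus yolk sac difference in mean peaks. The leading gap, with 10, was between Cd24a and Qrsl1 on chromosome 10 (290 kb). It was followed by those between Klf13 and Trpm1 on chromosome 7 (215 kb) and between Runx1 and Setd4 on chromosome 16 (757 kb), with 9 each. Per 100 kb, the gap between Myb and Hbs1l held 5.93 liver-only regions, and these 3, all longer, held 3.45, 4.19 and 1.19. The density of the remaining gaps, among them those tied at 8, is not given here. The 3 leading gaps also held 4, 1 and 13 yolk-sac-only regions, and the gap between Myb and Hbs1l was the 1 of the 6 that held none. No test of these differences was made.

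**Figure D4:**
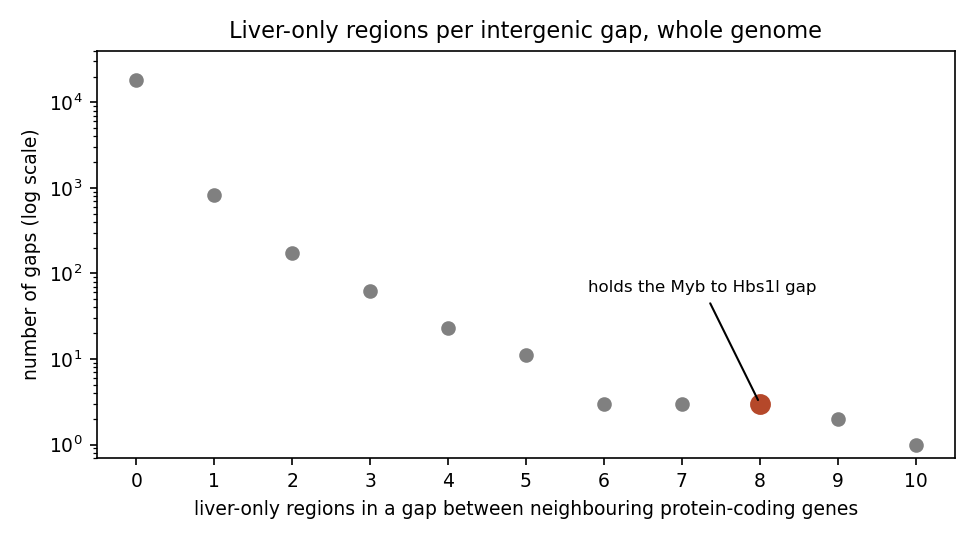
Number of gaps between neighbouring protein-coding genes (y axis, log scale) by the number of liver-only regions they hold (x axis), over 19065 gaps; the point marked is that of the gap between Myb and Hbs1l. Most gaps, 17971, hold none, and 3 gaps hold 8.

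Most genes of the families and pathways of Myb and Hbs1l had promoter peaks in all 4 libraries, a pattern that 53.8% of all protein-coding genes shared. All 3 genes of the MYB family, Myb, Mybl1 and Mybl2, had promoter peaks in all 4 libraries. Mybl1 was at the 96.0 and 89.3 percentiles in liver and the 76.4 and 75.6 in yolk sac, and Mybl2, a cell cycle regulator, at 88.4, 77.7, 78.1 and 97.6. Myb had the lowest percentile of the family in each list. All 8 genes listed for ribosome rescue, related GTPases and the decay of stalled messages were called in all 4 libraries as well. Pelo, which encodes the partner of HBS1L, was at the 86.0 and 86.6 percentiles in liver and the 64.8 and 57.7 in yolk sac.

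Of 10 factors known to bind the interval in erythroid cells, or their partners, 7 were called in all 4 libraries and 2 were liver-only. The liver-only pattern was found for 1.01% of all protein-coding genes and the yolk-sac-only pattern for 5.25%. The liver-only factors were Gata1, the master regulator of erythroid genes, at the 42.7 and 48.7 percentiles, and Klf1, an activator of adult globin genes, at the 95.0 and 97.8. Gata2, a factor of stem and progenitor cells, was at the 82.3 and 60.6 percentiles in yolk sac and was found in liver replicate 2 alone (25.3). Klf1 was no longer liver-only when promoters were widened to 1000 bp, nor was Gata1 in the higher-scoring 50% of each list.

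Of 11 progenitor genes known as MYB targets or partners, 8 were called in all 4 libraries and 2 were liver-only. These patterns were found for 53.8% and 1.01% of all protein-coding genes. The liver-only genes were Gfi1b and Flt3. Gfi1b, a repressor needed for red cells and platelets, was at the 71.0 and 57.8 percentiles. Flt3, a receptor of lymphoid and myeloid progenitors, was at the 11.8 and 65.8, and was kept in 1 liver library in the higher-scoring 50%. Gfi1 had a peak in liver replicate 2 alone (5.33). Of 6 genes of fetal globin control, 4 were called in all 4 libraries and Klf1 in liver only, beside the same 53.8% and 1.01%. Bcl11a, the repressor of fetal globin genes, had peaks in both liver libraries (77.3 and 86.7) and in yolk sac replicate 2 (42.1).

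The promoter scores most like those of Myb, by the largest difference in percentile over the 4 libraries among 11804 genes called in all of them, were at Padi2, Srsf12 and Cd79b, with largest differences of 10.5, 10.6 and 11.1 points. Those most like Hbs1l were at Traf3, Hdlbp and Zfp428, with 3.32, 3.55 and 3.72 points.

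Promoter peaks at marker genes were counted to compare the libraries with their labelled tissue. For scale, 1.01% of protein-coding genes were liver-only by promoter peak, 5.25% yolk-sac-only and 53.8% shared by the 4 lists. The share called in each single library is not given here. The yolk sac lists were longer, at 50525 and 43055 peaks against 24863 and 24333 in liver. The counts per library therefore have no background to be read against. Of 8 erythroid markers, each liver library had a peak at the promoter of all 8 and each yolk sac library at that of 1, Epor, with Alas2, Ermap, Gata1, Hbb-bt, Klf1, Rhag and Slc4a1 liver-only. Of 6 progenitor markers each of the 4 lists had 4. Of 5 megakaryocyte markers the liver lists had 4 and 3 and the yolk sac lists 2 and 2, of 5 macrophage markers 3 and 3 against 5 and 4, and of 6 hepatocyte markers 5 and 5 against 4 and 4. Endothelial markers (of 5) numbered 3 and 4 against 5 and 5, yolk sac endoderm markers (of 6) 4 and 2 against 6 and 6, and mesenchymal markers (of 5) 2 and 4 against 5 and 5. The erythroid list had its higher count in liver, as the interval between Myb and Hbs1l had, and so did the megakaryocyte and hepatocyte lists. The part of these cell types in that difference was not tested.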

How the data were processed

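PRO-seq was performed on 4 libraries. The submitters' processing notes name Bowtie2, bedtools and the build mm10. The deposited lists, 1 per library, give peak positions and the authors' score, which is not scaled between libraries. It was used for ranks and filters inside each list alone. The dREG version and the filters are not given in the sources used here. With the GENCODE M21 annotation of GRCm38 (mm10), 33.5% to 55.8% of peaks lay within 500 bp of a start site, and 11.1% to 14.6% after a shift of 5 kb.

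Python 3.11.15, numpy 2.4.6 and pandas 2.3.3 were used. Peaks overlapping by at least 1 bp were merged. Peaks that came within 500 bp of an annotated Myb or Hbs1l start were placed at that start, and others by midpoint. Positions are 1-based. The scripts were tested on simulated data. The members and gene lists were chosen with earlier results of these data known. Named are the members, the annotated neighbours, regions called in both libraries of a tissue, listed genes called in 1 tissue only, and the 3 genes or gaps leading each ranking; Gata2, Gfi1, Bcl11a, Mybl1, Mybl2, Pelo and Epor were named after their values were seen. No test was run: 2 libraries against 2 allow no exact permutation p below 0.333. Alternatives were score filters, windows, flanks, overlaps and the leaving out of each library.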

Additional observations from a re-analysis of the deposited data

How the results depend on the processing

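Of 67 alternative values for 8 results, 61 stayed within the spread between replicates, or within 1.5 times for a count, and none changed direction. Some of these could not move. Yolk sac had no peak between the genes, so filters could add no yolk-sac-only region there. Both promoters had a peak in every list, so leaving out a library or widening the window could not change their shares. With only the 50% of peaks that scored higher in their list, the difference between Myb and Hbs1l fell from 11 to 4.5 peaks and from 7797 to 4934 bp covered, and the liver-only regions there from 8 to 4. The share of libraries with a Myb promoter peak was then higher in liver by 0.5, and by 1 when each list was cut to its 24333 peaks of highest score, which raised the difference over the locus with its flanks from 7.5 to 14 peaks. These changes follow from fewer peaks being kept, and the cut to 24333 peaks fell almost only on the yolk sac lists. Leaving out each library gave differences between 10 and 12 peaks and between 7070 and 8524 bp between the genes, 8 to 12 liver-only regions, and 4.5 to 10.5 peaks over the locus. Without a liver library, liver-only meant a peak in the remaining liver list and in neither yolk sac list. The 10 and 12 regions found so include the weak peaks of that list. No paired analysis was possible because the results come from no test and the labels do not say that libraries of the same number share embryos. The share of intergenic regions with a GATA motif was not run, since no genome sequence was used here. The unknown read depth limits all comparisons of peak numbers.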
